A study of Mus musculus with 4 samples.

Results

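The genes described here are 31 immediate early genes, chosen by name and found by symbol among the 32285 genes counted. They comprise the Fos and Jun families with Atf3 and Maff, the Egr, Klf, Ier and Dusp genes, the RNA regulators Zfp36, Zfp36l1, Btg1 and Btg2, and Myc, Csrnp1, Gadd45b, Rhob and Cd69. All 31 symbols were matched, each to 1 gene. The study profiled single mouse cells by droplet sequencing of transcript 3' ends, in 1 library for each of 4 treatments. The libraries are labelled ctrl (the control), 2DG (2-deoxy-D-glucose, a glucose analogue that blocks glycolysis and disturbs protein glycosylation), aPDL1 (an antibody to PD-L1, the ligand of the T cell checkpoint receptor PD-1) and 2DG_aPDL1, called the combination below. All 4 samples are labelled lymph node. The series title names ovarian tumours, and its design text names young and aged, treated and naïve mice. Strain, age, dose, time and the number of mice behind each library are not given in the labels, so no group could be described by them.

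Immediate early genes are switched on within minutes of a stimulus, without new protein synthesis. Signals through MAP kinases and calcium act on factors already bound at their promoters, such as serum response factor at CArG boxes and CREB at cyclic AMP response elements. The transcription factors they encode start a second wave of transcription, while the DUSP phosphatases and the ZFP36 RNA-decay proteins end the response. In T cells they are induced through the antigen receptor, and in myeloid cells by cytokines and microbial products. They are also known to rise while a tissue is cut, digested and warmed, which bears on any level measured in dissociated cells.

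The 4 promoters below show sequence elements of the kinds looked for in such genes. They run from 250 bases before to 50 bases after the start site and come from RefSeq on build GRCm38.p6, whose promoter table held 24 of the 31 members. Fos, at chr12:85473640-85473939 on the plus strand, is shown as the best known gene of the class, with a TATAAA box in capitals that begins at position -33 from the start site. Zfp36, at chr7:28379179-28379478 on the minus strand, is shown because its level had the same shape in every cell class, and its CArG box begins at -58. Dusp5, at chr19:53528895-53529194 on the plus strand, is shown for its 2 adjoining CArG boxes at -82 and -72. Dusp1, at chr17:26508423-26508722 on the minus strand, carries the cyclic AMP response element TGACGTCA at -143. All are printed 5′ to 3′ on the gene's own strand.
Fos: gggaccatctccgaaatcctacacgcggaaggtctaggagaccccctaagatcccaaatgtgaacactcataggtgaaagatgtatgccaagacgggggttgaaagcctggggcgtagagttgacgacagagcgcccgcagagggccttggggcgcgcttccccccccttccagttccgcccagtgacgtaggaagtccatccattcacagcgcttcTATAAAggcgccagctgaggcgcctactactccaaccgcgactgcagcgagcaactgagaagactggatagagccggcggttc
Zfp36: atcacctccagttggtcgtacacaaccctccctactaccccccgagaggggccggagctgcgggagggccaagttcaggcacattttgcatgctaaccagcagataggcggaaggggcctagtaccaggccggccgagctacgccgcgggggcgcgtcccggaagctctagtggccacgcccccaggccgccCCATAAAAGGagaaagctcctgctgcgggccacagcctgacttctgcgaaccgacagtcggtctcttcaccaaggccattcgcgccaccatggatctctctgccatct
Dusp5: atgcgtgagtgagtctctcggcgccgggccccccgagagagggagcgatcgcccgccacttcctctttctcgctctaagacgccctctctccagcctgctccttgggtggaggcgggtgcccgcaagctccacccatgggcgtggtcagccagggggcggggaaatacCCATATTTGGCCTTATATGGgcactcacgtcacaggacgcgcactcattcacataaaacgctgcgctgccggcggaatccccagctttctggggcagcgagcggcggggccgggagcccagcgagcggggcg
Dusp1: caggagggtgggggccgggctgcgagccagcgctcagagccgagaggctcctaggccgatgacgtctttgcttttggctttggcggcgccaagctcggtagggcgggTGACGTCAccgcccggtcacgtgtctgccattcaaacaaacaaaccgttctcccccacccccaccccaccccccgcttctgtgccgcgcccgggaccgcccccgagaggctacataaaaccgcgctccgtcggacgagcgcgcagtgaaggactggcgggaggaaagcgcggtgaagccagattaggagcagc

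On either strand, a CArG box was found in 3 of the 24 members with a promoter (Dusp5, Egr2 and Zfp36), against 1.81% of 27025 genes. The sequence TGACGTCA was found in Btg2, Dusp1 and Maff, against 2.03% of genes. The AP-1 site TGACTCA occurred in Csrnp1 alone of the 24, against 5.95% of genes. TATAAA occurred in 5 members (Btg1, Fos, Gadd45b, Junb and Zfp36l1), against 15.7% of genes. A CArG box can hold TATAAA within it, and no member carried both. These are matches of letters in a 300-base window, so an element outside it would be missed, for Fos as for any other gene. The data hold no measurement of binding.

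Between 7380 and 8553 cells per library were kept, with a median of 5995 to 6464 UMIs, the unique molecule counts. Cells were put into classes by how many markers of a type they held, so a class name means cells like that type by their markers. The makeup of the ctrl library stood apart: 2751 of its 8381 cells (32.8%) were neutrophils against 2.81% to 4.19% of the other libraries, and it held 109 CD8 T cells against 1280 to 1647. B cells made up 0.907% to 5.24% of a library, monocytes and macrophages were the most numerous class in all 4, and that makeup is given here beside the lymph node label. From 22 to 30 cell barcodes were shared by each pair of libraries. Levels are counts per 1000000 UMIs of the class (CPM). They are compared between genes only as molecules, since 3' counts do not grow with transcript length. With 1 library per group no spread between animals can be estimated, no difference was tested, and every interval covers counting error only.

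By their summed share, immediate early genes were most abundant in neutrophils and next in monocytes and macrophages. Summed over the 31, they made up 2.96% of neutrophil UMIs in ctrl, 2.09% in 2DG, 2.31% in aPDL1 and 2.51% in the combination. In monocytes and macrophages the shares were 1.53%, 1.26%, 1.34% and 1.82% in the same order, and in CD8 T cells 0.629%, 0.618%, 0.663% and 0.918%. Every library thus had its neutrophils above its monocytes and macrophages, and these above its CD8 T cells. That order of classes held for the sum of the members and not for each of them.

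Among the 7 classes with at least 50 cells in every library (NK cells and cDC1 had fewer in 1 library each), 23 of the 31 members had the same highest class in all 4 libraries. For 15 of these it was neutrophils. Dusp1, the phosphatase that inactivates p38 and JNK, averaged 3163 CPM over the 4 neutrophil samples and 187.9 CPM in B cells, its lowest class. Ier3, an inducible survival gene, averaged 2872 CPM in neutrophils against 10.32 in B cells. Junb, a partner of Fos in the AP-1 factor, averaged 2803 CPM in neutrophils and 570.4 in migratory dendritic cells, so its classes differed far less than those of Ier3. Egr1, a zinc-finger transcription factor, averaged 1863 CPM in neutrophils against 56.25 in migratory dendritic cells.

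The other 8 members with a constant highest class lay outside neutrophils. Jund, the least inducible Jun gene, Myc, the growth regulator, and Cd69, an early activation antigen of lymphocytes, were highest in B cells. Cd69 averaged 454.4 CPM in B cells against 59.09 in monocytes and macrophages. Klf6, Zfp36l1 and Dusp5 were highest in migratory dendritic cells, where Klf6 averaged 1403 CPM. Atf3, a stress-induced AP-1 partner, was highest in cDC2, the dendritic cells that prime CD4 T cells, at a mean of 986.7 CPM. Dusp2, a nuclear phosphatase of ERK and p38, was highest in CD8 T cells at a mean of 298.6 CPM and lowest in neutrophils at 37.58. For the remaining 8 members (Fos, Fosb, Jun, Egr2, Egr3, Dusp6, Klf4 and Rhob) the highest class differed between libraries. Fos was highest in neutrophils in ctrl and in monocytes and macrophages in the other 3 libraries.

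**Figure D1:**
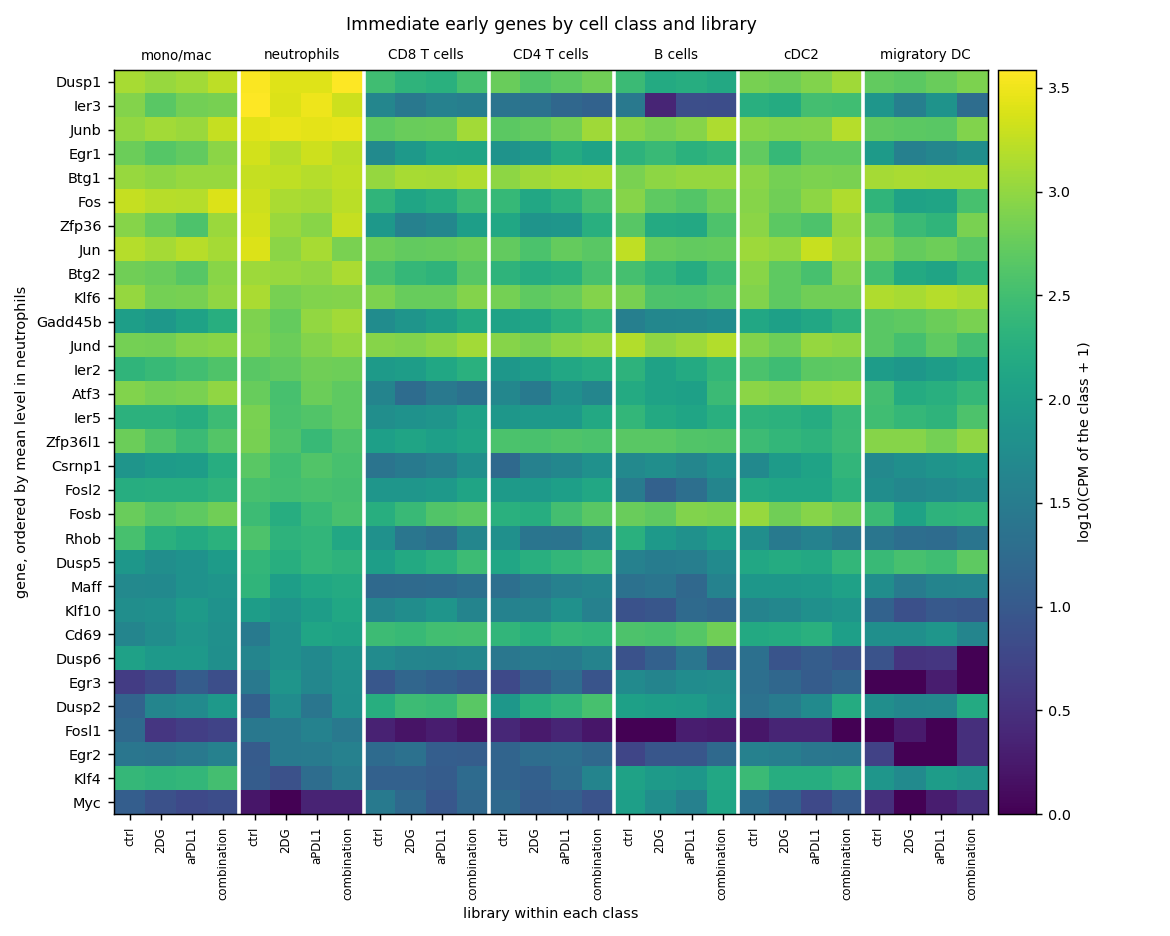
Level of each of the 31 members (rows) in 7 cell classes, with the 4 libraries side by side within a class. Colour gives log10 of the CPM plus 1, yellow the highest. The neutrophil columns are the brightest for 15 members in all 4 libraries, whereas Dusp2 is brightest in CD8 T cells.

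Across the 28 class and library values, the levels most like those of Fos were those of Egr1 (Pearson correlation 0.90), Ier2 (0.87), Btg2 (0.84), Zfp36 (0.82) and Junb (0.81). Dusp5 (-0.32), Cd69 (-0.38) and Dusp2 (-0.55) ran the other way. The 28 points share 4 libraries and their depths, so these values describe an arrangement of levels only. Single cells were read for several members beside Fos in the main classes, after each cell was thinned to 1500 UMIs. Only Dusp1 and Cd69 in monocytes and macrophages are given here. In ctrl monocytes and macrophages, a Dusp1 UMI was found in 80.6% of cells with a Fos UMI and 46.0% of those without. In the combination these shares were 86.8% and 66.6%, so the cells with Fos were the higher in both libraries, and also in 2DG (76.1% against 42.0%) and aPDL1 (78.2% against 52.4%). For Cd69 the shares were 5.26% against 3.88% in ctrl and 6.95% against 7.45% in the combination, and neither side was higher throughout. The cells of a library share their source, and the expression states within the class differ between its cells.

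In monocytes and macrophages, most immediate early genes were highest with the combination. Of the 31 members, 19 had their highest level there, 7 in ctrl, 5 in aPDL1 and none in 2DG. Of all genes with at least 50 UMIs in a library of this class, 20.9% were highest in the combination, 26.3% in ctrl, 28.4% in aPDL1 and 24.3% in 2DG. Fos stood at 1842 CPM in ctrl, 1583 in 2DG, 1529 in aPDL1 and 2520 in the combination. Egr1 was at 611.3, 433.9, 537.8 and 920.2 CPM in the same order. Over the class as a whole, both genes were lower with either single treatment than in ctrl. For Egr1 with aPDL1 this did not hold in the macrophage states given below. Junb, at 1003, 1210, 1122 and 1847 CPM, was lowest in ctrl. Dusp1 (1319, 1074, 1218 and 1714 CPM), Atf3 (816.4, 691.5, 739.8 and 964.7 CPM) and Klf4, a factor of monocyte differentiation (247.0, 220.4, 237.1 and 328.1 CPM), had the order of Fos apart from their lowest library. A few members had another order. Jun was at 1541 CPM in ctrl, 1289 in 2DG, 1586 in aPDL1 and 1288 in the combination, so the 2 libraries with 2DG were the lower. Btg1, an antiproliferative gene, varied little (1066, 944.5, 1071 and 1068 CPM).

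Each treatment was compared as 2 pairs of libraries with none in common: 2DG was set over ctrl and, with aPDL1 present, the combination over aPDL1, while aPDL1 was set over ctrl and, with 2DG present, the combination over 2DG. The 2 comparisons use the same 4 libraries and are not independent of each other. A gene was counted when it differed by at least 1.5-fold in the same direction in both pairs. In each of the 2 pairs the library with more of it also had to hold 50 UMIs or more. Here and below, shares and medians of all genes are taken over the genes that reached the UMI minimum of the same rule. In monocytes and macrophages all 31 members reached that minimum, and 1, Dusp2, was higher in both 2DG pairs, where 1.35% of all genes were. No member was lower in both 2DG pairs (1.78% of all genes). The aPDL1 pairs gave 1 member higher, again Dusp2 (1.42% of all genes), and none lower (1.29%). The members' median log2 ratio was -0.22 for 2DG over ctrl and 0.38 for the combination over aPDL1, where the medians of all genes were 0.14 and -0.10. For aPDL1 over ctrl it was -0.12 and for the combination over 2DG 0.57, against 0.13 and -0.09 over all genes. Each treatment alone thus came with a lower median of the members, and its addition to the other treatment with a higher one.

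In CD8 T cells, 24 of the 31 members reached the UMI minimum, and 4 were at least 1.5-fold higher in both aPDL1 pairs: Fosb, Egr1, Dusp5 and Gadd45b (1.63% of all genes). None was lower (0.381%). Fosb, an AP-1 subunit, was at 175.6 CPM in ctrl, 271.1 in 2DG, 406.5 in aPDL1 and 470.5 in the combination. Its log2 ratio was 1.21 for aPDL1 over ctrl (95% counting interval 0.97 to 1.46) and 0.80 for the combination over 2DG (0.73 to 0.87). Both libraries with aPDL1 lay above both without it. Egr1 behaved likewise, with 51.2 CPM in ctrl, 83.1 in 2DG, 128.5 in aPDL1 and 125.1 in the combination, and log2 ratios of 1.31 (0.88 to 1.81) and 0.59 (0.46 to 0.72). Its second ratio lies at the 1.5-fold limit. Dusp5, the nuclear phosphatase of ERK, was at 99.97 CPM in ctrl, 147.9 in 2DG, 190.0 in aPDL1 and 285.7 in the combination, with log2 ratios of 0.92 (0.61 to 1.26) and 0.95 (0.86 to 1.04). For Gadd45b, a stress sensor that acts on p38, levels were 54.9, 74.3, 97.9 and 149.2 CPM and log2 ratios 0.82 (0.40 to 1.30) and 1.01 (0.88 to 1.14). The ctrl values rest on 109 cells, which shows in the wider interval of each first ratio. Egr1 was no longer counted under a stricter gate, and neither Egr1 nor Gadd45b after cells were thinned to 1500 UMIs, where Ier2 and Dusp2 were counted. Fosb and Dusp5 were counted under all 6 alternatives.

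In CD4 T cells, 28 members reached the minimum for the aPDL1 pairs, and 7 were higher in both (1.71% of all genes): Fosb, Dusp2, Csrnp1, Ier2, Gadd45b, Dusp5 and Maff. None was lower (0.854%). Fosb was at 187.3 CPM in ctrl, 171.6 in 2DG, 330.8 in aPDL1 and 463.4 in the combination, with log2 ratios of 0.82 (0.62 to 1.02) and 1.43 (1.32 to 1.55). Ier2, a small nuclear protein of the immediate early response, was at 77.5, 99.5, 139.3 and 166.2 CPM. Csrnp1, a cysteine- and serine-rich nuclear protein, was at 15.8, 36.8, 44.7 and 63.9 CPM. Maff, a small Maf factor, had 19.6, 26.5, 36.2 and 41.2 CPM, and Dusp5 131.7, 182.4, 232.6 and 284.6. These 4 genes share an order, with ctrl lowest, 2DG next, then aPDL1 and then the combination. Fosb, Dusp5 and Gadd45b were thus counted in both T cell classes. Of the 7, Dusp2 alone was also counted in monocytes and macrophages. Fosb in monocytes and macrophages as a whole was at 585.7, 432.8, 502.2 and 638.9 CPM, where aPDL1 alone was below ctrl. This did not hold in each state of that class, nor the T cell rise equally in each CD4 T cell state, as given below. Whether the T cell and myeloid ratios differ beyond animal-to-animal spread could not be tested with 1 library per group.

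The members' median log2 ratios in CD8 T cells were 0.19 for aPDL1 over ctrl and 0.73 for the combination over 2DG, against 0.18 and -0.03 over all genes. Those of CD4 T cells were 0.43 and 0.65, against 0.08 and -0.04. Thus the first of these medians in CD8 T cells was close to that of all genes, and the second was not. For 2DG the members' medians were 0.19 and 0.59 in CD8 T cells (0.15 and -0.08 over all genes) and 0.04 and 0.36 in CD4 T cells (0.06 and -0.07).

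**Figure D2:**
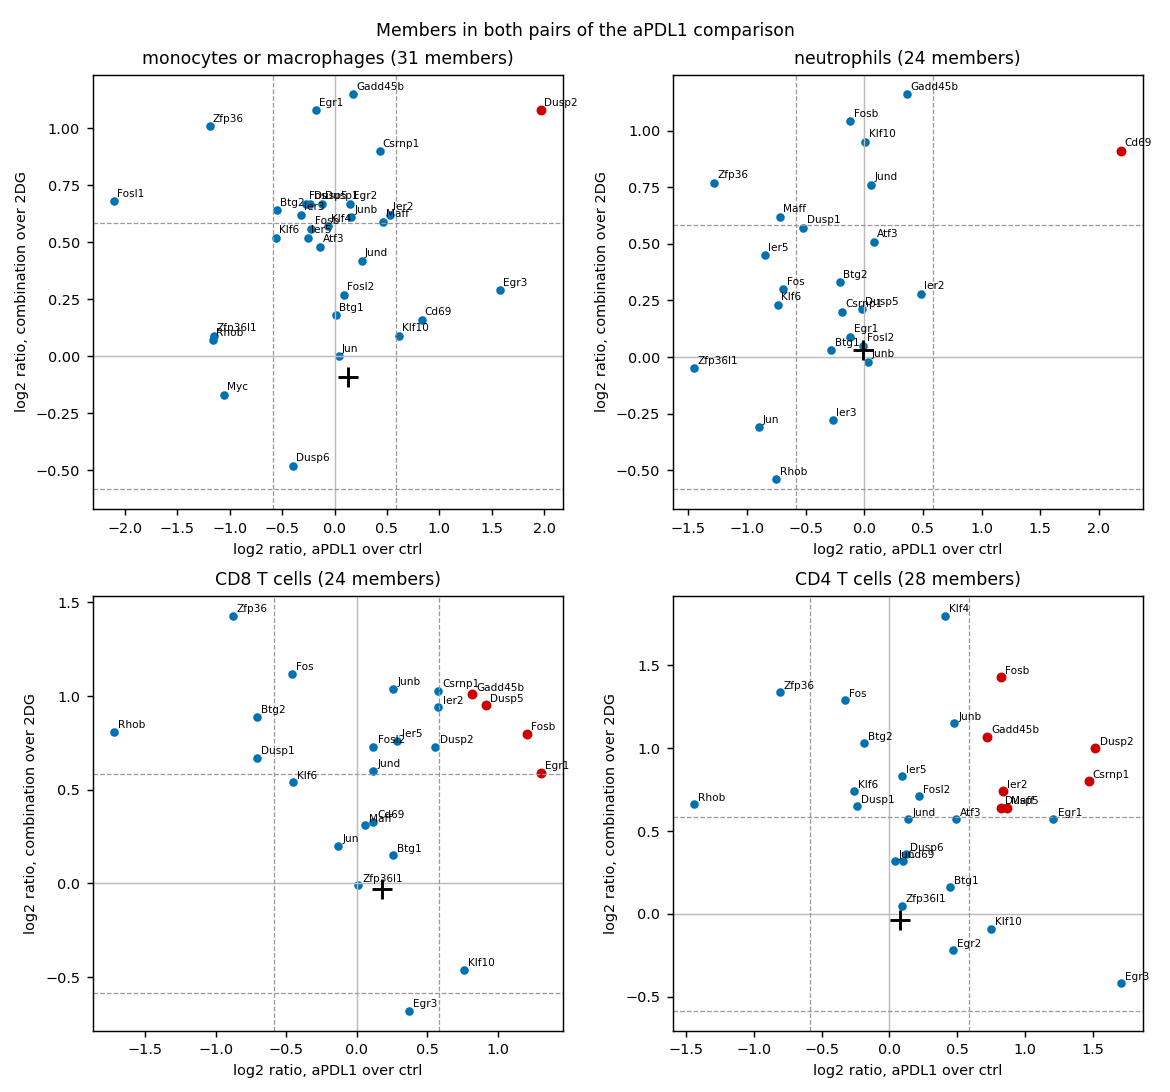
Log2 ratio of each member in the 2 aPDL1 pairs (x axis, aPDL1 over ctrl; y axis, combination over 2DG) in 4 cell classes. Red points are members at least 1.5-fold higher in both pairs with enough UMIs, the black cross is the median of all genes and dashed lines mark 1.5-fold. There are 4 red points in CD8 T cells and 7 in CD4 T cells, against 1 in each myeloid class.

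Dusp2 was the 1 member higher with 2DG in more than 1 class. In CD8 T cells it was at 179.2 CPM in ctrl, 282.3 in 2DG, 264.6 in aPDL1 and 468.2 in the combination, with log2 ratios of 0.65 (0.42 to 0.91) and 0.82 (0.76 to 0.89) for the 2DG pairs. It was the only 1 of 24 members counted there (0.886% of all genes), and none was lower (0.111%). In CD4 T cells its levels were 79.0, 174.9, 227.6 and 350.7 CPM, and it was again the 1 member higher in both 2DG pairs, of 27 with enough UMIs (0.611% of all genes), with none lower (0.402%). Its log2 ratios there were 1.14 (0.86 to 1.45) and 0.62 (0.49 to 0.75) for 2DG, and 1.52 (1.23 to 1.83) and 1.0 (0.88 to 1.13) for aPDL1. The ctrl library was the lowest and the combination the highest in both T cell classes.

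Monocytes and macrophages held far less Dusp2, again with ctrl lowest and the combination highest, at 13.0 CPM in ctrl, 41.3 in 2DG, 51.1 in aPDL1 and 87.6 in the combination. Its log2 ratios were 1.66 (1.5 to 1.83) and 0.78 (0.68 to 0.87) for 2DG and 1.97 (1.82 to 2.13) and 1.08 (0.98 to 1.19) for aPDL1. After thinning to 1500 UMIs, 1.88% of these cells held a Dusp2 UMI in ctrl, 5.86% in 2DG, 7.16% in aPDL1 and 11.2% in the combination. In neutrophils, where Dusp2 was lowest on average, the thinned shares were 1.33%, 6.58%, 2.23% and 8.51%. Median depths before thinning were 7043 to 10817 UMIs in monocytes and macrophages and 2631 to 3917 in neutrophils. The shares of the 2 classes are close in each library except aPDL1, so a background level of free Dusp2 RNA cannot be told apart from low expression here. The summed level of 8 T cell markers in the same cells was 13.95 CPM in ctrl, 44.65 in 2DG, 55.32 in aPDL1 and 30.02 in the combination. That sum had the order of Dusp2 over the first 3 libraries and not in the combination. The sum of 8 NK cell markers there was 5.501, 20.66, 23.71 and 23.89 CPM. It had the order of Dusp2 in every library, although aPDL1 and the combination lay close together. The part of either sum in the Dusp2 levels was not tested. Dusp2 was also highest in the combination in cDC2 (21.6, 29.7, 50.9 and 161.5 CPM). NK cells carried the highest Dusp2 levels, at 842.7 CPM in 2DG, 872.6 in aPDL1 and 924.2 in the combination, and 224.5 in the 16 NK cells of ctrl.

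Junb was the member most widely highest with the combination. By a rule chosen after the values were seen, a member was counted when 1 library stood at least 1.5-fold above each of the other 3, with at least 50 UMIs in at least 1 library, which need not be the highest one. For the combination, Junb met it in 8 of 9 classes, Dusp2 in 5, Csrnp1 in 4 and Gadd45b in 3. Junb in CD8 T cells was at 503.5 CPM (95% interval 456 to 554) in ctrl, 589.5 in 2DG, 604.2 in aPDL1 and 1213 in the combination. CD4 T cells had 480.0, 531.7, 668.7 and 1178 CPM, NK cells 800.2, 1236, 1533 and 2420, and B cells 880.3, 732.1, 860.3 and 1382. In cDC1 the values were 291.7, 275.3, 251.1 and 683.6 CPM, in cDC2 877.7, 820.3, 833.7 and 1520, and in migratory dendritic cells 515.9, 479.1, 472.3 and 814.3. The first 3 libraries lay close together in the dendritic cell classes, and the combination above them in all 8. Neutrophils, which held the most Junb, were the class left out, at 2650, 2943, 2711 and 2908 CPM.

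The same rule named 7 of 30 members in CD8 T cells (Junb, Csrnp1, Dusp2, Ier5, Gadd45b, Fosl2 and Dusp5; 1.91% of all genes). It named 5 of 31 in monocytes and macrophages (Dusp2, Csrnp1, Gadd45b, Junb and Egr1; 1.88%). In CD4 T cells it named 5 of 30 (Klf4, Junb, Ier5, Btg2 and Dusp2; 1.77%), and in NK cells 6 of 25 (Zfp36, Gadd45b, Maff, Btg2, Junb and Cd69; 1.49%). The counts were 3 of 26 in B cells (2.56%), 4 of 23 in cDC1 (4.1%), 4 of 27 in cDC2 (2.54%) and 3 of 24 in migratory dendritic cells (2.18%). In neutrophils it named 1 of 30, Klf4 (8.36%), a share below that of all genes. No member stood at least 1.5-fold below each other library in the combination in monocytes and macrophages, neutrophils, CD8 or CD4 T cells, where 3.11%, 3.57%, 1.69% and 3.2% of all genes did. The single treatments named few. No member stood at least 1.5-fold above each other library with 2DG in these 4 classes, in the same order, against 0.349%, 3.18%, 0.343% and 0.499% of all genes. With aPDL1 alone, Egr3 did in monocytes and macrophages (0.698%) and Egr3 and Klf10 in CD4 T cells (0.329%), and no member in neutrophils (1.87%) or CD8 T cells (0.555%). Shares of cells had the same order: after thinning, a Junb UMI was found in 46.7% of ctrl CD8 T cells, 53.1% with 2DG, 54.9% with aPDL1 and 75.3% with the combination. Without thinning the shares were 78.9%, 87.0%, 87.3% and 96.2%.

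NK cells, which kill without a rearranged antigen receptor, held 197 to 326 cells in the treated libraries and 16 in ctrl, so ctrl values there have wide intervals. Members made up 0.886% of NK cell UMIs in ctrl, 0.912% in 2DG, 1.17% in aPDL1 and 1.48% in the combination. Gadd45b was at 78.1, 100.2, 162.4 and 287.5 CPM, Maff at 19.5, 68.9, 100.9 and 167.1, and Ier2 at 322.0, 353.8, 566.9 and 629.5, all with ctrl lowest and the combination highest. Fosb was highest with aPDL1 alone (224.5, 340.9, 652.7 and 509.7 CPM). Fos was at 712.4 CPM in ctrl, 243.5 in 2DG, 396.5 in aPDL1 and 493.5 in the combination, so it did not have the order of Junb.

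The dendritic cell classes were small, with 23 to 154 cells per library. Fos was highest with the combination in each of them. It was at 942.3, 612.3, 590.8 and 1261 CPM in cDC1, the cells that present antigen to CD8 T cells, at 869.6, 648.8, 941.4 and 1466 in cDC2, and at 221.7, 116.3, 124.5 and 352.7 in migratory dendritic cells. Fosb had a different order, highest in ctrl in all 3: its cDC1 levels were 873.3, 359.4, 357.3 and 357.5 CPM, so that the 3 treated libraries lay together. Csrnp1 in cDC2 was at 49.9, 91.8, 118.9 and 230.0 CPM. Dusp5 in migratory dendritic cells, its highest class, was at 268.3, 346.3, 306.6 and 491.8 CPM.

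**Figure D3:**
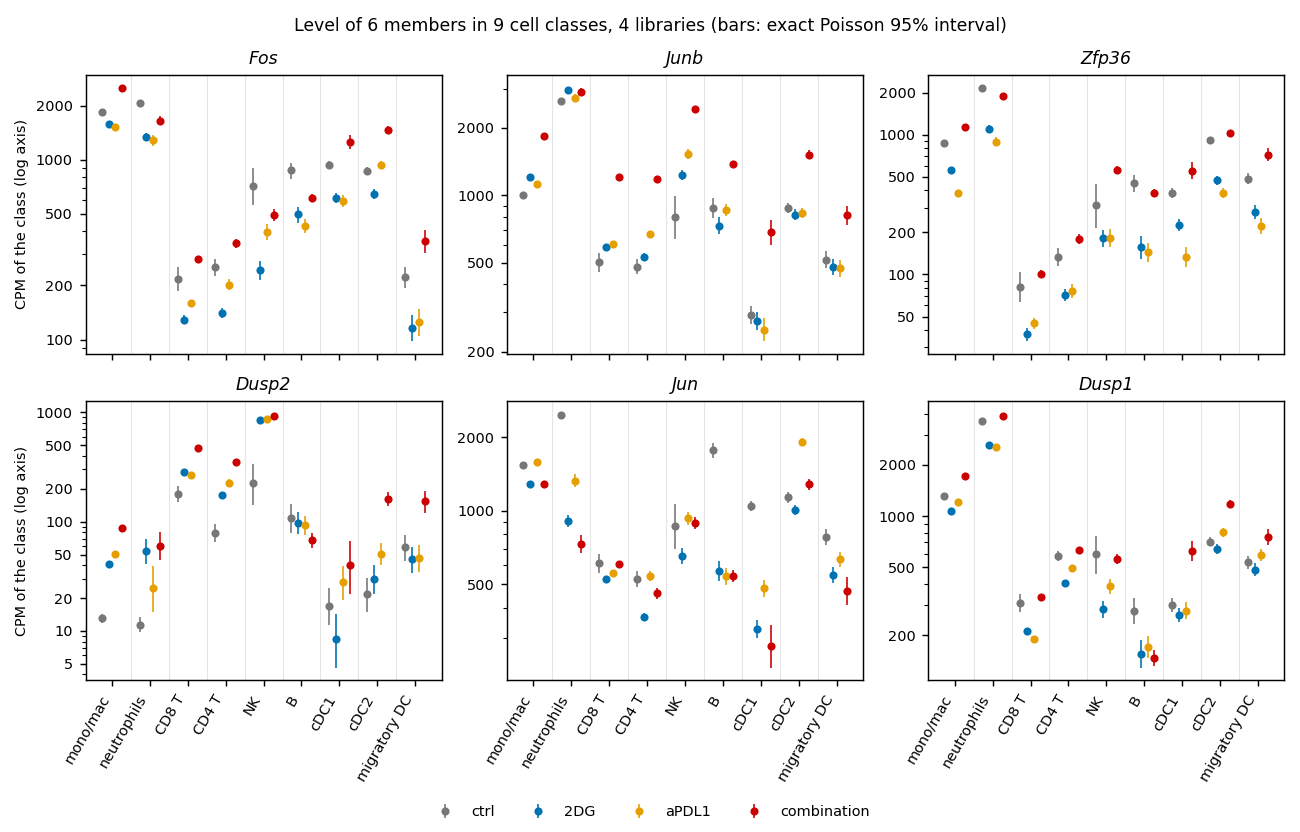
Level of Fos, Junb, Zfp36, Dusp2, Jun and Dusp1 in 9 cell classes (CPM, log axis), with 1 point per library and exact Poisson 95% intervals of the counts as bars. The combination is the highest Junb point in all classes but neutrophils, and in the Zfp36 panel ctrl and the combination lie above both single treatments in all 9.

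Zfp36, which encodes the RNA-decay protein tristetraprolin, was high in ctrl and the combination and low with either treatment alone. Its level in monocytes and macrophages was 866.5 CPM in ctrl, 558.4 in 2DG, 380.6 in aPDL1 and 1128 in the combination. The log2 ratio was -0.63 for 2DG over ctrl and 1.57 for the combination over aPDL1, and -1.19 for aPDL1 over ctrl and 1.01 for the combination over 2DG. Each treatment thus came with less Zfp36 in one pair and more in the other. CD8 T cells held less of it, with 81.7 CPM (63.3 to 104) in ctrl, 37.2 (33.3 to 41.4) in 2DG, 44.6 (40.7 to 48.8) in aPDL1 and 100.6 (94.7 to 107) in the combination. The values were 133.9, 71.2, 76.3 and 179.8 CPM in CD4 T cells, 2171, 1109, 894.1 and 1894 in neutrophils, and 448.2, 157.2, 144.6 and 383.5 in B cells. In no class did a single treatment reach either of the other libraries.

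By a second rule chosen after the values were seen, ctrl and the combination each had to be at least 1.5-fold above both single treatments. Zfp36 met it in 9 of 9 classes, while 0.329% to 2.47% of all genes met it in a class. It was the 1 member to do so in monocytes and macrophages (0.449% of all genes) and in neutrophils (2.47%). Rhob, a small GTPase that is itself rapidly induced, joined it in CD8 T cells (63.4, 24.8, 19.3 and 43.6 CPM; 0.464% of all genes) and CD4 T cells (61.7, 24.1, 22.8 and 38.1 CPM; 0.329%). The shares of all genes were 0.897% in NK cells, 0.593% in B cells, 0.843% in cDC1, 0.726% in cDC2 and 0.719% in migratory dendritic cells. Fos met the rule with Zfp36 in cDC1 and in migratory dendritic cells, and Btg2 in cDC2 and in migratory dendritic cells. Cells thinned to 1500 UMIs showed the same order of libraries: a Zfp36 UMI was found in 62.7% of monocytes and macrophages in ctrl, 51.9% in 2DG, 40.2% in aPDL1 and 73.2% in the combination. In thinned monocytes and macrophages, however, Zfp36 no longer met the 1.5-fold rule, and in thinned CD8 T cells the rule named Fos, Dusp1, Btg2 and Rhob and not Zfp36.

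Neutrophils held the most Zfp36, and their markers were read in the other classes too. The summed level of 10 neutrophil markers was 147.5 CPM in ctrl CD8 T cells, 70.38 in 2DG, 76.74 in aPDL1 and 113.1 in the combination. This was the same order of high and low libraries as Zfp36. No marker was at 0 in all 4 libraries together. In CD4 T cells that sum was 242.2, 197.7, 322.5 and 389.7 CPM, where aPDL1 was above ctrl, unlike Zfp36. In monocytes and macrophages it was 710.4, 408.4, 369.6 and 440.8 CPM, with ctrl and the combination again above both single treatments, although the combination, highest for Zfp36, was close to 2DG. In neutrophils themselves it was 61780, 100900, 97570 and 64530 CPM. The part of free neutrophil RNA in the levels of Zfp36 was not tested.

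Btg2, an antiproliferative gene of the p53 response, had a shape near that of Zfp36 in T cells. It was at 352.3 CPM in ctrl, 243.2 in 2DG, 215.6 in aPDL1 and 449.3 in the combination in CD8 T cells, and at 217.4, 167.9, 190.9 and 343.8 in CD4 T cells. Fos in CD8 T cells (218.2, 129.2, 158.8 and 281.8 CPM) and in CD4 T cells (253.5, 140.4, 201.9 and 343.1 CPM) also had ctrl and the combination above both single treatments. In CD8 T cells this rests on 9 naive-like ctrl cells, which held 59 of the Fos UMIs at 801.2 CPM. In the other CD8 T cells, 100 of them in ctrl, Fos was at 160.7, 127.3, 158.0 and 285.0 CPM, so ctrl and aPDL1 were alike. Dusp1 in CD8 T cells did so as well (310.9, 211.1, 189.9 and 336.8 CPM), although its ctrl level was less than 1.5-fold above 2DG. Klf6, a Krüppel-like factor, was at 764.4, 575.1, 559.1 and 836.8 CPM there. Dusp1, Klf6, Btg2 and Zfp36 were therefore lower with each treatment alone than in ctrl, and Fosb, Dusp5 and Egr1 higher, within the same CD8 T cells and also without the naive-like ones.

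In neutrophils, 14 of the 30 members with at least 50 UMIs in a library were highest in ctrl, 10 in the combination, 4 in aPDL1 and 2 in 2DG. Of all genes there, 22.9% were highest in ctrl, 36.2% in the combination, 17.2% in aPDL1 and 23.7% in 2DG. Jun was at 2476 CPM in ctrl, 909.5 in 2DG, 1327 in aPDL1 and 731.5 in the combination. It was 1 of 2 members lower in both 2DG pairs, of 26 with enough UMIs (3.15% of all genes), with log2 ratios of -1.44 (-1.53 to -1.36) and -0.86 (-1.01 to -0.71). Rhob was the other, at 388.4, 207.6, 229.8 and 142.8 CPM. No member was higher in both 2DG pairs (6.37% of all genes). Jun, Zfp36l1, Rhob and Klf6 stood at least 1.5-fold above each other library in ctrl, 4 of 30 members against 7.12% of all genes. With 26 members tested over the 2DG pairs, counts of 2 and 0 lie within 2 genes of what those shares of all genes amount to.

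In the aPDL1 pairs of neutrophils, 1 of 24 members was higher (1.33% of all genes) and none lower (0.759%). It was Cd69, at 27.7 CPM in ctrl, 61.4 in 2DG, 126.0 in aPDL1 and 115.2 in the combination, with log2 ratios of 2.19 (1.85 to 2.51) and 0.91 (0.45 to 1.37). After thinning Cd69 was no longer counted, and Gadd45b was. Zfp36l1, a paralogue of Zfp36, was at 715.0, 395.1, 261.3 and 380.8 CPM, and Ier3 at 3769, 2525, 3117 and 2077. Egr1 (2232, 1528, 2060 and 1631 CPM) and Fos (2067, 1343, 1284 and 1657 CPM) were also highest in ctrl, whereas Gadd45b (784.2, 554.8, 1007 and 1240 CPM) was highest in the combination. Neutrophils numbered 2751 in ctrl and 234 to 309 elsewhere. Late neutrophils, gated on their own markers (Ccl3, Cxcl3, Ccl4 and Vegfa), accounted for 74.7% of the class in ctrl, 38.2% in 2DG, 44.9% in aPDL1 and 54.0% in the combination. The gate counted markers in cells before thinning, and neutrophils had a median of 3917 UMIs in ctrl, 2930 in 2DG, 2631 in aPDL1 and 2652 in the combination. The part of depth in these shares was not tested. Within late neutrophils Egr1 was at 2242, 1986, 2402 and 2201 CPM, so aPDL1 and not ctrl was highest. In early neutrophils, gated likewise, Egr1 was highest in ctrl (2121, 901.3, 1461 and 822.6 CPM). Fos was highest in ctrl in both states.

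Scaling mattered for this class. Factors that balance the bulk of genes (TMM) moved the median neutrophil ratio by -0.48 for 2DG over ctrl and by -0.43 for aPDL1 over ctrl, so that ctrl stood still higher. Levels that lay close together, such as Junb, have no firm order there. For monocytes and macrophages the same factors moved the median by -0.15 to 0.11, and in T cells by at most 0.07.

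Jun was also highest in ctrl in B cells, at 1774 CPM (1650 to 1900) against 566.9 in 2DG, 538.4 in aPDL1 and 541.2 in the combination. With Rhob, Klf6 and Dusp1 it made 4 of 26 members at least 1.5-fold above each other library in ctrl B cells (3.3% of all genes). Some markers of other cells were also highest in ctrl B cells. The 4 erythroid markers summed to 4649 CPM against 2.69, 706.6 and 2.80 in the other libraries. The 14 monocyte or macrophage markers summed to 949.2 CPM against 419.1, 499.2 and 224.6. Other marker sums were lowest in ctrl, among them those of NK cells (6.895 CPM against 20.15, 29.1 and 26.42) and cDC1 (606.8 against 644.8, 822.1 and 747.8). The part of other cells' RNA in the B cell levels was not tested. Libraries differed less in CD8 T cells, where Jun was at 608.3, 525.0, 554.8 and 603.2 CPM, and in CD4 T cells at 524.3, 367.8, 540.6 and 459.3. Jund followed Junb weakly in CD8 T cells, at 870.4, 820.1, 947.9 and 1243 CPM. Within the Jun family, then, the library with the highest level was ctrl for Jun in 5 of 9 classes (neutrophils, CD8 T cells, B cells, cDC1 and migratory dendritic cells) and the combination for Junb in 8 classes. For Jun in CD8 T cells, ctrl and the combination lay close together. Without the naive-like cells the combination was highest there (575.9, 526.9, 554.7 and 605.5 CPM). In monocytes and macrophages, ctrl stood at least 1.5-fold above each other library for 3 members (5.65% of all genes): Fosl1 (15.9, 2.69, 3.70 and 4.32 CPM), Rhob (347.1, 188.1, 155.7 and 196.8 CPM) and Myc (10.8, 6.76, 5.19 and 5.99 CPM). Among CD4 T cells the same held for Rhob (2.86% of all genes). In CD8 T cells (5.62%) it was met by Myc and Atf3, which rest on 23 and 33 UMIs in ctrl, and by Atf3 only with 0.5 added to the counts.

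Of the members not yet given, Klf10 was highest with aPDL1 alone in CD8 T cells (42.7, 56.3, 73.1 and 40.9 CPM) and in CD4 T cells (38.4, 39.7, 65.0 and 37.2 CPM). Egr2 and Egr3, the Egr genes that restrain T cell activation, ranged from 5.27 to 20.8 CPM over the libraries of both T cell classes. Dusp6, the cytoplasmic phosphatase of ERK, was at 111.2, 83.2, 84.1 and 59.5 CPM in monocytes and macrophages, with the combination lowest where Dusp2 was highest. Cd69 in T cells varied little, at 287.7, 257.7, 314.0 and 323.3 CPM in CD8 and 231.0, 182.9, 247.9 and 228.6 CPM in CD4 T cells. Atf3 in CD8 T cells was at 40.2, 17.4, 27.1 and 21.0 CPM, and Btg1 there at 1058, 1298, 1266 and 1436. Myc was near its floor in neutrophils: ctrl held 9 UMIs, and 2DG, aPDL1 and the combination 0, 1 and 1. CD8 T cells had Myc at 28.0, 16.1, 8.34 and 15.5 CPM.

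Within the classes, the members were also read in states gated on further markers, which kept some of these patterns and not others. The members summed to 14260 CPM in ctrl, 11510 in 2DG, 11250 in aPDL1 and 18430 in the combination in macrophages with C1q genes, and to 16000, 13160, 14000 and 20000 CPM in those with Spp1 and Arg1. Classical monocytes had 15460, 13440, 14670 and 18010 CPM, and non-classical monocytes 15730, 13500, 14440 and 15830. The combination was the highest library in all 4 states, by the least in non-classical monocytes, where Fos was at 2089, 1936, 1920 and 1921 CPM. Macrophages with Spp1 and Arg1 accounted for 43.4% of the class in ctrl and for 9.44% to 16.4% elsewhere. For the sum, the order of libraries within that state was the same as in the C1q state apart from the order of the single treatments. Egr1 with aPDL1 alone was above ctrl in the C1q state (666.3 against 586.6 CPM) and the Spp1 and Arg1 state (793.8 against 753.2). In classical (368.1 against 463.7) and non-classical monocytes (229.6 against 258.5) it was below ctrl. Fosb with aPDL1 alone was above ctrl in the Spp1 and Arg1 state (511.0 against 477.8) and classical monocytes (432.6 against 383.3). It was below ctrl in the C1q state (606.7 against 822.7) and non-classical monocytes (391.3 against 436.3).

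Among CD4 T cells, those with Foxp3, the regulatory T cell factor, had Dusp2 at 54.1, 76.5, 106.3 and 79.7 CPM. The other CD4 T cells had 94.5, 215.6, 273.4 and 465.9 CPM, so the highest library was aPDL1 in the first state and the combination in the second. Fosb was at 169.3, 101.1, 173.7 and 197.2 CPM with Foxp3, where aPDL1 lay close to ctrl. In the other CD4 T cells it was at 189.0, 200.3, 390.0 and 525.2 CPM. The members summed to 7320, 6456, 7044 and 8248 CPM with Foxp3 and to 5878, 5681, 7604 and 9628 without. Early neutrophils, with 31440 CPM in ctrl and 16040 to 19510 elsewhere, differed more between libraries than late neutrophils, with 29130 in ctrl and 24720 to 27860 elsewhere. Zfp36 in early neutrophils was at 3095, 861.0, 890.2 and 1742 CPM.

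**Figure D4:**
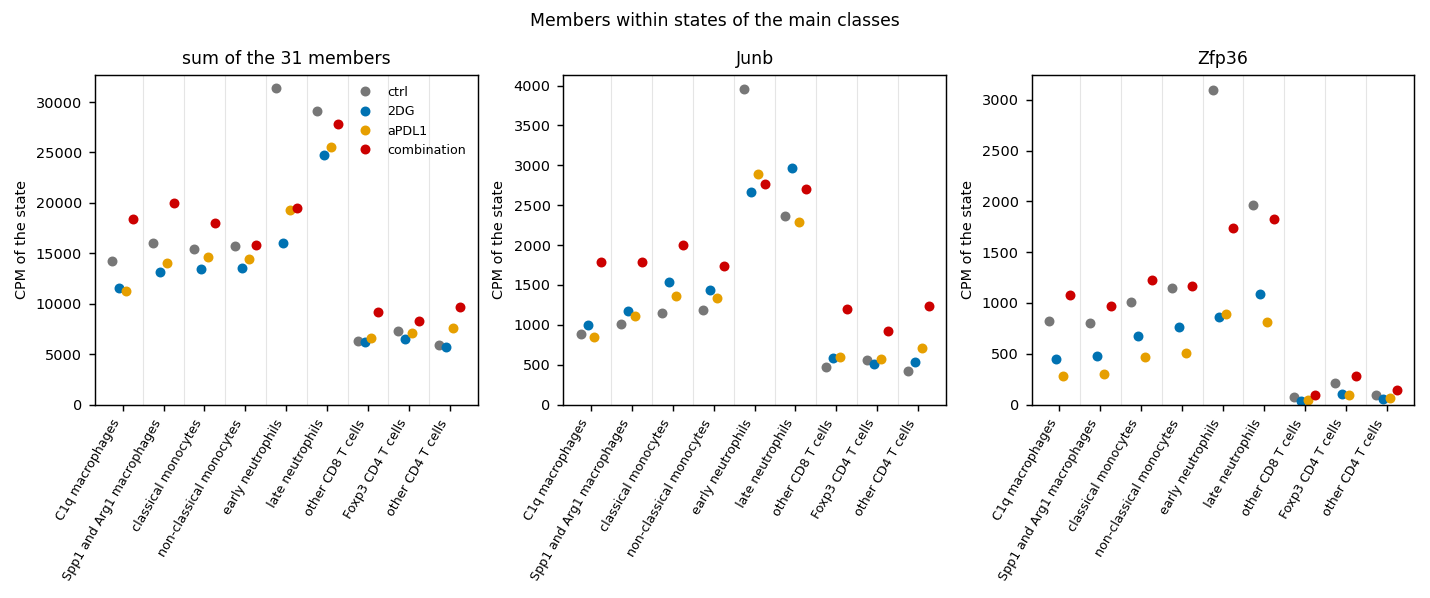
Summed level of the 31 members, and levels of Junb and Zfp36, in 9 states gated within the main classes (CPM, 1 point per library). The combination is the highest sum in the macrophage, monocyte and T cell states, and ctrl in both neutrophil states.

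Genes close to the members were read from lists. Of 41 further immediate early and feedback genes, 24 had enough UMIs in CD8 T cells for the aPDL1 pairs. Of these, 4 were higher in both (1.63% of all genes): Nr4a2, Nr4a3, Nfkbia and Pim1. Nr4a3, an orphan nuclear receptor induced through the T cell receptor, was at 89.0, 133.0, 157.6 and 283.6 CPM. Nfkbia, the inhibitor of NF-κB, was at 181.6, 233.3, 285.6 and 492.7 CPM. Among CD4 T cells 1 of 32 was higher (1.71% of all genes), again Nr4a3, at 97.1, 123.8, 200.2 and 357.0 CPM. These had the order of Dusp5 and Gadd45b, with ctrl lowest and the combination highest. Among monocytes and macrophages, Nr4a2 was higher (1.35% of all genes) and Errfi1 lower (1.78%) in both 2DG pairs, of 35.

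Genes of the pathway above the members were counted in the same way. Of 31 measured genes of the MAP kinase and serum response factor pathway, 1 was counted in any main class or comparison. It was Map2k6, lower in both aPDL1 pairs in monocytes and macrophages (1.29% of all genes). Over the main classes, 0.111% to 6.37% of all genes were counted in a comparison and direction, so this count is not read as a trait of the pathway. Of 17 partners and competitors of AP-1, Mafk was lower in both 2DG pairs in neutrophils (3.15% of all genes). Bach2 was higher in both aPDL1 pairs in CD4 T cells (1.71%). RNA levels do not show the phosphorylation through which these proteins act.

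The inducible HSP70 genes Hspa1a and Hspa1b, which can also be induced by tissue handling, followed another order. In monocytes and macrophages they summed to 735.7 CPM in ctrl, 448.9 in 2DG, 433.7 in aPDL1 and 125.3 in the combination. The sum in CD8 T cells was 761.9, 300.9, 131.7 and 18.35 CPM, in CD4 T cells 828.3, 305.5, 120.4 and 28.02, and in neutrophils 691.3, 97.51, 227.1 and 8.768. All 9 classes had its top value in ctrl and its bottom value in the combination, the fold between them running from 3.97 in NK cells to 629 in B cells. Both ends rest on small samples, as ctrl held 16 NK cells and 76 B cells. The bottom value in B cells was 3.603 CPM, where 3 UMIs amount to 1.2 CPM. In the neutrophils of the combination 3 UMIs amount to 3.76 CPM. The size of these folds is therefore loose. The summed level of the members was highest in the combination in monocytes and macrophages, CD8 and CD4 T cells, NK cells, cDC2 and migratory dendritic cells. In neutrophils, B cells and cDC1 it was highest in ctrl, as the HSP70 sum was. Of 21 handling and heat shock genes outside the members, 4 were lower in both pairs of either comparison in monocytes and macrophages (Hspa1a, Hspa1b, Hsph1 and Hspb1). Of all genes there, 1.78% were lower in both 2DG pairs and 1.29% in both aPDL1 pairs. The sum of all 21 was 11400, 8037, 8576 and 8784 CPM there, so 2DG and not the combination was lowest. In CD8 T cells it was 7844, 6926, 6576 and 6573 CPM, where aPDL1 and the combination were alike. The HSP70 sum of ctrl B cells was 2266 CPM, the highest of any class. A part of tissue handling in the members' levels was not tested, and handling and treatment cannot be told apart with 1 library per group.

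**Figure D5:**
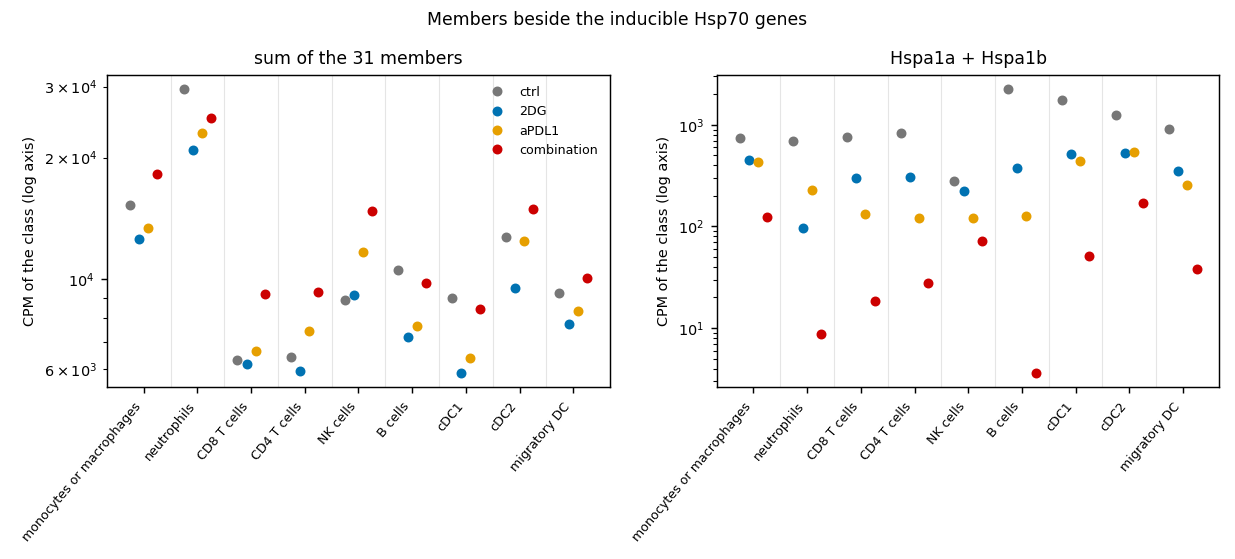
Summed level of the 31 members and of Hspa1a with Hspa1b in 9 cell classes (CPM, 1 point per library). All 9 classes have the top value of the heat shock pair in ctrl and the bottom value in the combination, whereas the member sum is highest in the combination in 6 classes and in ctrl in neutrophils, B cells and cDC1.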

How the data were processed

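Single-cell libraries were made with the 10x Genomics 3' kit, version 3.1, per the labels' protocols. The authors deposited unnormalised UMI counts. The matrix headers name Cell Ranger 7.0.0, whereas the submitters' processing notes name Cell Ranger 3.1.0 and build mm10, so the version behind the counts is uncertain. The ctrl, 2DG, aPDL1 and 2DG_aPDL1 libraries held 73885214, 61859753, 62823127 and 65369018 UMIs in 9655, 8701, 9764 and 9948 barcodes. A cell needed 500 genes and no more than 10% of its UMIs from mitochondria, and the highest Scrublet scores (scanpy 1.11.5) were removed as doublets, at 0.8% per 1000 barcodes. Classes were gated on the number of distinct markers with a UMI, from 3 to 5 by class, with thresholds set after the marker distributions were seen. At the neutrophil gate, 437 ctrl cells lay on the threshold and 688 were 1 marker short. Counts were summed per class and library, and log2 ratios used counts plus 0.5. Intervals of levels are exact Poisson 95% intervals. Those of log2 ratios are exact binomial 95% intervals from the counts of the pair, without the 0.5. The calling code was tested on simulated data. The alternatives were no doublet removal, at least 1000 genes, a stricter gate, TMM factors (edgeR 4.0.16), at least 10 UMIs and cells thinned to 1500 UMIs. Members are named from a written list or because a rule counted them in a main class; the single-library and ctrl-with-combination rules were chosen after values were seen. Members and lists were chosen with earlier results of these data known.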

Additional observations from a re-analysis of the deposited data

How the results depend on the processing

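No paired analysis was possible because each group holds 1 library. Of 149 recomputed counts of members, 125 stayed within 1.5 times the reported count and 24 moved. Equal counts need not name the same members, and the cause of a change was not tested. With 10 UMIs in place of 50, neutrophils gained 1 member higher with 2DG (Dusp2) and had 2 higher with aPDL1 (Klf4, Cd69), CD8 T cells had 1 lower with aPDL1 (Egr2), and CD4 T cells had 1 lower with 2DG (Myc) and 1 lower with aPDL1 (Ier3), the last also without doublet removal. Thinning left 1 neutrophil member lower with 2DG (Jun) and 4 CD4 T cell members higher with aPDL1 (Fosb, Ier2, Dusp2, Gadd45b). TMM factors gave 7 CD8 T cell members higher with aPDL1 (Ier2, Dusp2 and Csrnp1 added) and 2 higher with 2DG (Dusp2, Dusp5), as did the stricter gate, and 1 neutrophil member lower with aPDL1 (Rhob), as did the minimum of 1000 genes.

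For members highest in the combination, the neutrophil count was 0 with 1000 genes, the stricter gate or TMM factors, the CD8 T cell count 4 without doublet removal, and the CD4 T cell count 3 after thinning. For members with ctrl and the combination above both single treatments, monocytes and macrophages had 2 with TMM factors (Klf6, Zfp36) and 0 after thinning. Neutrophils had 2 without doublet removal (Dusp1, Zfp36) and 2 with 1000 genes (Zfp36, Maff). CD8 T cells had 5 without doublet removal (Fos, Dusp1, Zfp36, Btg2, Rhob) and 4 after thinning. Some counts within 1.5 times named other members: Egr1 was lost in monocytes and macrophages highest in the combination without doublet removal, with TMM factors and after thinning, Rhob among neutrophils lower with 2DG without doublet removal, Maff among CD4 T cells higher with aPDL1 without doublet removal, Fosl2 and Dusp5 among CD8 T cells highest in the combination after thinning, and Rhob among CD4 T cells high in ctrl and the combination after thinning. Few cells limit several classes, among them 16 NK cells, 76 B cells and 109 CD8 T cells in ctrl and 23 cDC1 in the combination.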
